A study of Mus musculus with 6 samples.

Results

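The testis-specific serine kinases are a small family of protein kinases whose transcripts are found almost only in male germ cells after meiosis. The genes described here are Tssk1, Tssk2, Tssk3, Tssk4 and Tssk6, which encode kinases, and Tsks, which encodes a substrate and binding partner of TSSK1 and TSSK2. They were chosen by symbol, and all 6 were found among the 24411 genes of the deposited tables and passed the filter on low counts, as did 17110 genes in all. RNA was sequenced from whole testes of age-matched C57BL/6 mice, a standard inbred strain, in 3 libraries with the genotype label MRP5-/- and MRP9-/-, written below as labelled DKO (double knockout), and 3 with the label Wildtype, written as labelled WT. The labels give neither the age nor the design of the alleles. MRP5 and MRP9 are ABC transporters listed by RefSeq as Abcc5 and Abcc12, and the series concerns male reproduction and mitochondrial function.

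In spermatids, TSSK1 and TSSK2 bind TSKS, and these proteins are found with the chromatoid body and its derivatives, the ring and satellite structures that move along the growing tail while mitochondria gather into the midpiece sheath. Mice without Tssk1 and Tssk2, without Tssk3 or without Tssk6 have infertile males, and TSSK6 is needed for normal packing of sperm chromatin. TSSK4 phosphorylates ODF2, a protein of the outer dense fibres of the tail.

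The libraries held between 42673615 and 67131103 expected counts where labelled DKO and between 26753721 and 31745969 where labelled WT, and the recovered mean fragment length was 294 ± 21.4 bases against 245 ± 13.8 bases (SD, n = 3 each). Both quantities were apart between the groups, so depth, fragment length and genotype cannot be told apart. Abcc12 was at 82.1, 82.4 and 72.6 CPM (TMM-scaled counts-per-million values) in the libraries labelled DKO and at 165, 158 and 158 CPM in those labelled WT, which is -1.02 on the log2 scale (SE 0.0739; edgeR quasi-likelihood test, adjusted p = 0.000307). Abcc5 was at 17.0, 16.7 and 16.8 CPM against 10.5, 12.3 and 11.4 CPM, which is 0.56 on the log2 scale (SE 0.0896; adjusted p = 0.0225, edgeR). Abcc5 was thus higher where its label says it is knocked out, and the groups are named by their labels throughout.

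No gene of the family was called different between the groups. At an adjusted p under 0.05, 0 of the 6 genes were called by the edgeR quasi-likelihood test, beside 1856 of 17110 tested genes (10.8%; 5.75% higher and 5.1% lower in libraries labelled DKO). At an unadjusted p under 0.05 the count was 1 of 6 (Tssk6, lower), beside 31.7% of all tested genes, and DESeq2 called 1 of 6, again Tssk6, beside 21.1% of the genes it tested. The median log2 fold change of the 6 genes was 0.02, with 3 above 0 and 3 below, against 0.00 for all tested genes (-0.0042 before rounding). The median absolute log2 fold change was 0.12 for the 6 genes and 0.18 for all tested genes.

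All 6 transcripts were abundant. They stood at ranks 129 (Tssk2), 265 (Tsks), 424 (Tssk1), 493 (Tssk3), 604 (Tssk6) and 985 (Tssk4) of 24411 genes by mean TPM (the deposited transcripts-per-million value, which takes transcript length into account). Together they made up 0.275% ± 0.00929 of all transcripts in libraries labelled DKO and 0.278% ± 0.0148 in those labelled WT (SD, n = 3 each). In a whole tissue, fewer cells of a type and less RNA per cell cannot be told apart. The 6 genes had between 4041 and 48857 counts in each library, so that counting error alone was at most 1.57% at the lowest count, while the coefficient of variation of CPM between libraries of a group ran from 2.05% (Tssk3, labelled DKO) to 15.6% (Tssk6, labelled DKO).

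**Figure D1:**
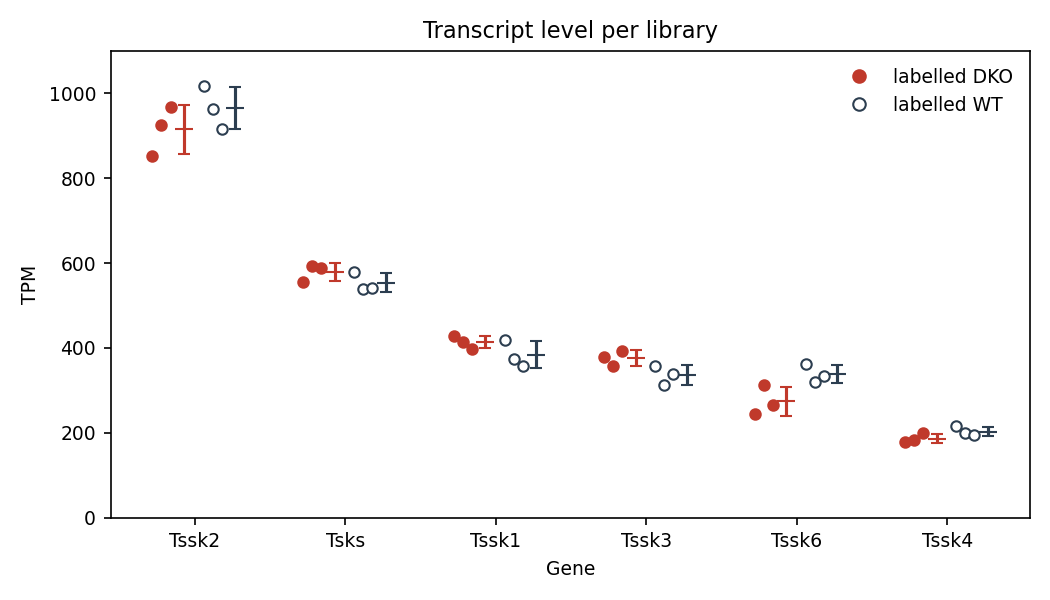
TPM of each gene (y axis) in each library, ordered by level. Filled points are libraries labelled DKO and open points those labelled WT (replicates 1 to 3 from left to right), with the mean and SD beside them. Tssk6 is the gene whose groups do not overlap, at 246 to 312 TPM labelled DKO and 319 to 361 TPM labelled WT.

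Tssk1 and Tssk2 encode the TSKS-binding kinases and lie side by side on the plus strand of chromosome 16 (GRCm38), each as 1 exon. RefSeq places Tssk1 at 17894203 to 17895653 and Tssk2 at 17898637 to 17900024, 2983 bases apart, and Tssk1 lies inside the span of Dgcr2, a gene on the opposite strand. The pair is 2.43 Mb from Abcc5. The promoter windows below, the 250 bases before each start from RefSeq (GRCm38.p6), are shown because this neighbouring pair differs in level. A link between these sequences and the levels was not tested. Dgcr2 ends at 17898562 in GENCODE M21, so its span holds the whole Tssk1 window and the first part of the Tssk2 window. Capitals mark every run of at least 8 bases that both windows hold in the same orientation.
Tssk1, chr16:17893953-17894202, + strand: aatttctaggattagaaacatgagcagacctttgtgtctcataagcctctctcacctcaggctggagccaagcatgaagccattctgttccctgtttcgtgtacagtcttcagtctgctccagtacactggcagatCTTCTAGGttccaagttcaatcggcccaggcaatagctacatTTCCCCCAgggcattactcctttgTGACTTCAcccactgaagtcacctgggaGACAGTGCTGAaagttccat
Tssk2, chr16:17898387-17898636, + strand: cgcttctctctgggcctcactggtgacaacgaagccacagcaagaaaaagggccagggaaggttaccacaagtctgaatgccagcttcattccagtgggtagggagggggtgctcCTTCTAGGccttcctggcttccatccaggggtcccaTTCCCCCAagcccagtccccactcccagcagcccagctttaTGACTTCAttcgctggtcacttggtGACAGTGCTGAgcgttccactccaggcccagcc
There were 4 such runs, in the same order in both windows. How many runs unrelated windows share was not tested. The run nearest the start, GACAGTGCTGA, ends 9 bases before the start of Tssk1 and 22 bases before that of Tssk2, and 6 of 32851 RefSeq windows of this length hold it on either strand (0.0183%). The windows of Tssk1 and Tssk2 are among these 6. The run TGACTTCA, found in 1.31% of the windows, ends 40 and 50 bases before the starts. The runs TTCCCCCA and CTTCTAGG were found in 1.85% and 0.950% of the windows. The cyclic AMP response element TGACGTCA, the site bound by CREB and CREM, was searched on both strands and was found in 0 of the 6 genes' windows and in 1.55% of all windows. Its shorter form TGACG was found in 1 of the 6, Tssk6, and in 17.8% of all windows. For Tsks, Tssk4 and Tssk3 the window searched lies before the RefSeq start, at 44929472, 55643651 and 129491730. These are not the GENCODE starts (44943204, 55650184 and, on the minus strand, 129491022), and the bases before the GENCODE starts were not searched.

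Tssk2 was the most abundant of the family, at 853, 926 and 967 TPM in libraries labelled DKO and 1016, 962 and 916 TPM in those labelled WT. The groups overlapped. The log2 fold change was -0.06 (SE 0.0814; adjusted p = 0.676, edgeR), and the fold was 0.962 with a 95% interval of 0.850 to 1.09. Tssk1 was at 427, 414 and 398 TPM against 420, 375 and 358 TPM, a log2 difference of 0.13 (SE 0.0883; adjusted p = 0.337, edgeR; fold 1.09, 95% interval 0.957 to 1.25). WT replicate 1 fell inside the range of the libraries labelled DKO, and the other two libraries labelled WT lay below it. The ratio of Tssk1 to Tssk2 within a library was 0.501, 0.447 and 0.412 in TPM in libraries labelled DKO and 0.413, 0.389 and 0.391 in those labelled WT. These ranges overlapped narrowly, and the mean difference of 0.18 on the log2 scale had an exact two-sided permutation p of 0.2 (adjusted 0.24 over 6 quantities; the smallest p that 3 against 3 libraries allow is 0.1).

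Tsks, the partner of both kinases, is spread over many exons on chromosome 7 (plus strand, 44943204 to 44958035 in GENCODE M21, GRCm38). It was second in level, at 556, 594 and 587 TPM in libraries labelled DKO and 580, 540 and 541 TPM in those labelled WT. The groups overlapped through WT replicate 1. Its log2 fold change was 0.10 (SE 0.0792; adjusted p = 0.394, edgeR; fold 1.07, 95% interval 0.953 to 1.21). The files list more than 1 transcript for Tsks, and its abundance-weighted length stayed between 1830.2 and 1830.4 bases over the 6 libraries.

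Tssk3 encodes a kinase with its gene on the minus strand of chromosome 4 (129489014 to 129491022, in 2 exons in GENCODE M21). It was at 379, 357 and 394 TPM in libraries labelled DKO and 359, 313 and 338 TPM in those labelled WT. A single library labelled WT, replicate 1, reached into the range of the libraries labelled DKO. The log2 fold change was 0.15 (SE 0.0806; adjusted p = 0.219, edgeR; fold 1.11, 95% interval 0.983 to 1.26). Its transcript of 1034 bases is the shortest of the 6, and the value was 0.20 (adjusted p = 0.120, edgeR) when the effective lengths of each library entered as an offset.

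Tssk4, which encodes the kinase acting on ODF2, lies on the plus strand of chromosome 14 (55650184 to 55652539 in GENCODE M21). It was the least abundant of the 6, at 177, 183 and 200 TPM in libraries labelled DKO and 215, 199 and 194 TPM in those labelled WT. The highest library labelled DKO lay above 2 of the 3 labelled WT. The log2 fold change was -0.11 (SE 0.0793; adjusted p = 0.371, edgeR; fold 0.928, 95% interval 0.822 to 1.05). Several transcripts are listed for Tssk4, and its weighted length ranged from 1279.7 to 1283.1 bases.

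Tssk6, whose product is activated with the help of the co-chaperone TSACC and HSP90, is a single exon on the plus strand of chromosome 8 (69902184 to 69903518, GRCm38), 16.6 Mb from Abcc12. It had the lowest fold of the 6 genes. In CPM it was at 173, 230 and 183 in libraries labelled DKO and 263, 216 and 236 in those labelled WT, and DKO replicate 2 lay above WT replicate 2. In TPM it was at 246, 312 and 265 against 361, 319 and 334, and here the groups did not overlap. Groups were apart for 0 of the 6 genes in CPM, beside 35.9% of all tested genes, and for 1 of the 6 in TPM, beside 33.2%. The log2 fold change was -0.29 (SE 0.110; adjusted p = 0.101, edgeR, unadjusted p = 0.0237), and the fold was 0.820 with a 95% interval of 0.695 to 0.969 before adjustment for the number of genes. Tssk6 passed the threshold without DKO replicate 2 (log2 fold change -0.43; adjusted p = 0.0360, edgeR, with 3.83% of genes called) and with DESeq2 (-0.29; DESeq2 adjusted p = 0.0407). Over the other alternatives that kept or left out libraries, its log2 fold change stayed below 0.

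The count of Tssk6 is tied to that of Ndufa13, a subunit of respiratory complex I encoded on the opposite strand. A further gene on that strand, Yjefn3, overlaps Tssk6 by 15 bases and was not tested. The exons of Tssk6 and Ndufa13 overlap by 375 bases (69902184 to 69902558, GENCODE M21), and strand handling is not given in the sources used here. The promoter window of Tssk6, read from RefSeq, is shown because it runs through this neighbour, with the TGACG match in capitals, 68 bases before the start.
Tssk6, chr8:69901934-69902183, + strand: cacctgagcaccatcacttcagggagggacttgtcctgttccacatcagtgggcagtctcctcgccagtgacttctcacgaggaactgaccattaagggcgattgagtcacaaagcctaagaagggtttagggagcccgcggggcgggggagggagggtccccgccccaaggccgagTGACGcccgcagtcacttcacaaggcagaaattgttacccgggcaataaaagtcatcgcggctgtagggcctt
Of the 6 genes, Tssk6 alone had fractional expected counts, and it had them in all 6 libraries. Added to the expected count of Ndufa13, they gave whole numbers in 6 of 6 libraries (within 0.005 of a count), from 10395 to 21332. Tssk6 took 62.7%, 65.5% and 58.0% of the joint count in libraries labelled DKO and 66.6%, 64.2% and 67.1% in those labelled WT, so DKO replicate 2 lay among the libraries labelled WT. The joint feature was at 276, 351 and 316 CPM against 394, 337 and 352 CPM, and its log2 fold change was -0.20 (SE 0.0958; adjusted p = 0.179, edgeR). Ndufa13 alone had a log2 fold change of -0.04 (SE 0.0946; adjusted p = 0.786, edgeR). How much the division of fragments between both genes moves the value of Tssk6 was not tested beyond this joint count.

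**Figure D2:**
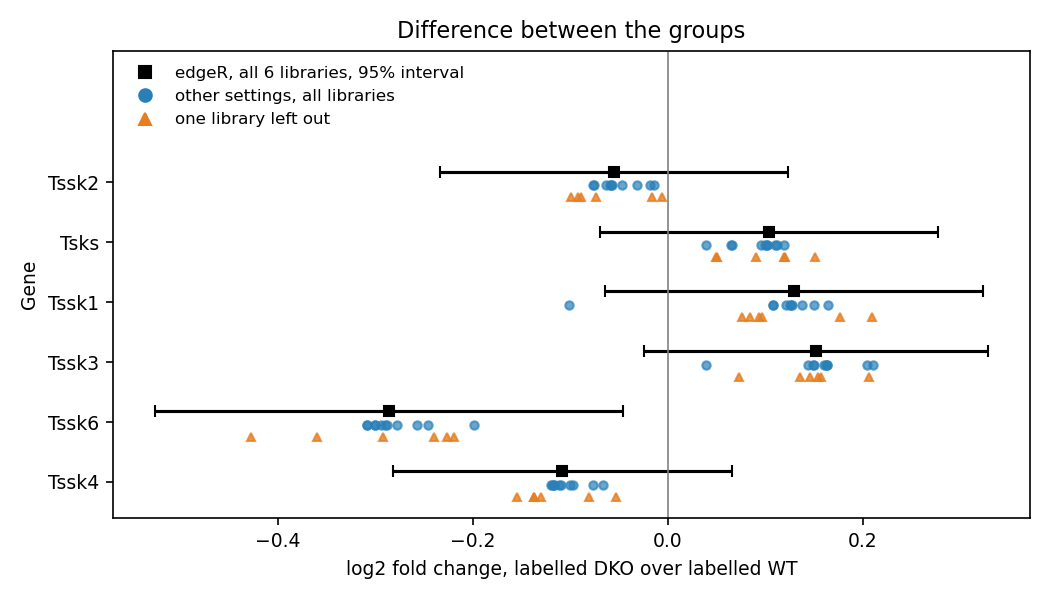
Log2 fold change of each gene, labelled DKO over labelled WT (x axis). Black squares are the edgeR fit over 6 libraries with its 95% interval, blue circles other settings over all libraries and orange triangles fits without 1 library. The circle of Tssk6 nearest 0 is the joint count with Ndufa13. The interval of Tssk6 (-0.53 to -0.05) is the one that leaves out 0, and a single circle of Tssk1 (-0.10) lies on the other side of 0 from its main value.

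The order of levels differed between the groups in 1 place. In libraries labelled DKO the order by mean TPM was Tssk2, Tsks, Tssk1, Tssk3, Tssk6 and Tssk4, and no neighbours in it overlapped. In libraries labelled WT, Tssk6 (319 to 361 TPM) and Tssk3 (313 to 359 TPM) could not be separated, nor could Tssk1 (358 to 420 TPM) and Tssk6. The most abundant gene stood 4.90 times above the least abundant in libraries labelled DKO and 4.75 times in those labelled WT. WT replicate 1 was the highest of its group for 6 of the 6 genes, in TPM and in CPM, and DKO replicate 1 was the lowest of its group for 4 of the 6.

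Shares within a library do not depend on how libraries are scaled to each other. Of the summed TPM of the 5 kinases, Tssk6 made up 11.8%, 14.2% and 11.9% in libraries labelled DKO and 15.2%, 14.7% and 15.6% in those labelled WT (12.6% ± 1.38 against 15.2% ± 0.448, SD, n = 3 each). Tssk3 made up 18.2%, 16.3% and 17.7% against 15.1%, 14.4% and 15.8%. The share of Tssk6 was thus lower, and that of Tssk3 higher, in each library labelled DKO than in any labelled WT. The share of Tssk6 also rests on the division of fragments with Ndufa13 described above. The share of Tssk1 was 19.1% ± 1.32 against 17.2% ± 0.480, and that of Tssk4 was 8.62% ± 0.321 against 9.11% ± 0.0746 (SD, n = 3 each), again with no overlap. For these 4 shares the exact two-sided permutation p was 0.1, the smallest possible, and 0.15 after adjustment over 6 quantities. The share of Tssk2 overlapped (42.2% ± 1.27 against 43.3% ± 0.895, SD, n = 3 each; exact permutation p = 0.4). Shares sum to a fixed total, so these 5 values are not independent of each other. Groups without overlap were common in these data. They were found for 33.2% of all tested genes in TPM. For within-library TPM ratios of pairs of genes with a mean of at least 100 TPM, the figure was 51.8%. The shares are therefore descriptions of these libraries.

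**Figure D3:**
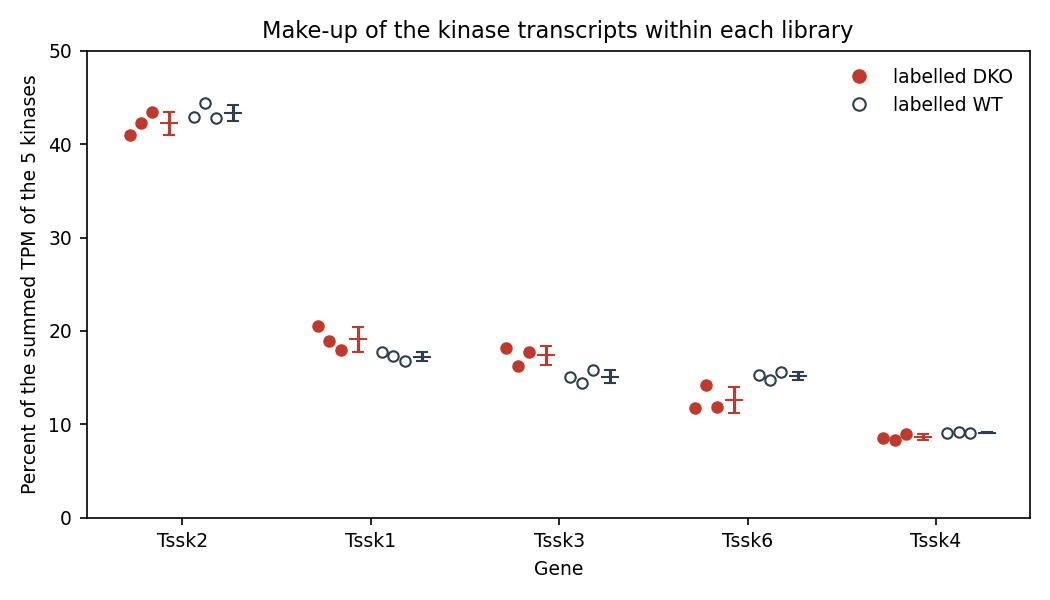
Share of each kinase in the summed TPM of the 5 kinases (y axis, percent), per library. Filled points are libraries labelled DKO and open points those labelled WT (replicates 1 to 3 from left to right), with mean and SD beside them. Tssk6 lies at 11.8% to 14.2% in libraries labelled DKO and 14.7% to 15.6% in those labelled WT, while the share of Tssk2 overlaps.

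Ratios between pairs of the 6 genes, computed for all 15 pairs after the levels had been seen, are descriptions of these libraries. The ranges of the groups were apart for 8 of 15 pairs in TPM (9 of 15 in CPM), 3 of them among the 5 pairs with Tssk6. Among all pairs of the 1830 genes with a mean of at least 100 TPM, 51.8% were apart, so the count for the family is near that of abundant genes in general. The pair furthest apart was Tssk3 to Tssk6, with TPM ratios of 1.54, 1.14 and 1.49 in libraries labelled DKO and 0.992, 0.980 and 1.01 in those labelled WT. In TPM both genes were thus at nearly equal levels in each library labelled WT, and Tssk3 was the higher in each library labelled DKO. The value of Tssk6 in these ratios rests on the division of fragments with Ndufa13 described above. The difference of 0.47 on the log2 scale had an exact permutation p of 0.1 (0.188 after adjustment over 15 pairs). The ratio of Tssk2 to Tssk4 moved little, at 4.81, 5.05 and 4.84 against 4.72, 4.82 and 4.72 (difference 0.04 on the log2 scale; exact permutation p = 0.2).

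**Figure D4:**
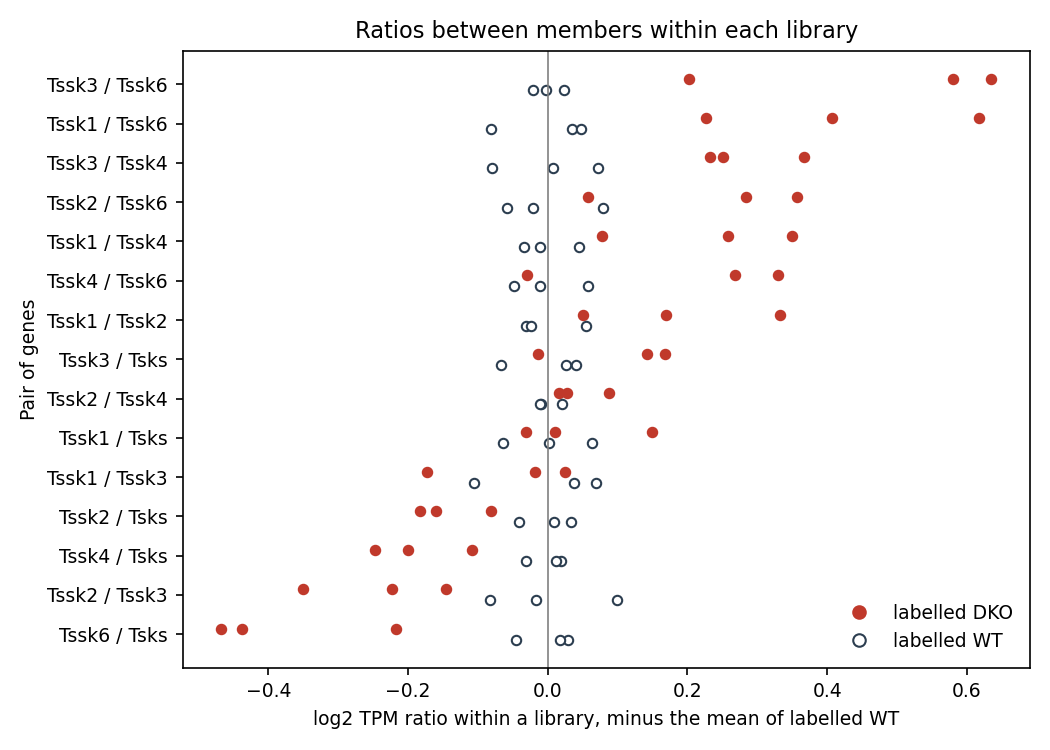
Log2 TPM ratio of each of the 15 pairs within a library, with the mean of the libraries labelled WT subtracted (x axis). Filled points are libraries labelled DKO and open points those labelled WT. Tssk3 to Tssk6 (difference of means 0.47) lies at the top and Tssk6 to Tsks (-0.37) at the bottom.

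Partners, chaperones and substrates of the kinases were described next, and 0 of these 13 genes were called by edgeR (median log2 fold change 0.02), beside 10.8% of all tested genes. At an unadjusted p under 0.05 the count was 6 of 13, beside 31.7%. DESeq2 called 4 of the 13 lower and 0 higher, beside 21.1% of the genes it tested, and without DKO replicate 3 edgeR called 2 higher and 1 lower, beside 17.7%. Among them was Tsacc, which encodes the TSSK6 co-chaperone, at -0.30 (SE 0.0896; adjusted p = 0.0530, edgeR), and Tssk5, a further family relative, with -0.35 (SE 0.113; adjusted p = 0.0625, edgeR). Tssk5 was at 14.97, 14.2 and 19.2 TPM in libraries labelled DKO and 22.4, 20.3 and 20.1 TPM in those labelled WT, far below the other kinases in each library, with groups that did not overlap. Odf2, the TSSK4 substrate, was at 3302, 3345 and 3501 TPM against 3309, 3388 and 3457 TPM (log2 fold change 0.05, SE 0.0716; adjusted p = 0.673, edgeR), so its groups overlapped fully. Ppp1cc, a phosphatase whose testis form binds TSKS, had a log2 difference of 0.13 (SE 0.0797; adjusted p = 0.285, edgeR).

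Of 12 genes of the chromatoid body and the annulus, 2 were called higher in libraries labelled DKO and 0 lower (median 0.07). They were Ddx4, an RNA helicase of the germ granule, at 0.41 (SE 0.0898; adjusted p = 0.0292, edgeR) and Sept7, a septin, at 0.37 (SE 0.108; adjusted p = 0.0494, edgeR). Among 21 other protein kinases and kinase partners of spermatids and sperm, 3 were called higher and 0 lower (median 0.14). These were Stk33, a kinase needed for the sperm tail, at 0.36, Prkar2a, a regulatory subunit of protein kinase A, at 0.35, and Ccnyl1, a cyclin that partners CDK16, at 0.26 (edgeR, adjusted p of 0.0386, 0.0417 and 0.0427). Among 19 genes listed for the exchange of histones for protamines, the process for which TSSK6 is known, 3 were called higher (Cdyl at 0.51, Phf7 at 0.32 and Kdm3a at 0.28) and 1 lower (Prm3 at -2.64), with a median of 0.12. Whether Prm3 has a part in this exchange was not tested. These shares stand beside 5.75% of all tested genes called higher and 5.1% called lower. The higher calls of these 3 lists were not kept in each fit that left out a library. Each count was 0 without DKO replicate 1, WT replicate 2 or WT replicate 3. Those fits called few genes of any kind (0.0402% to 0.0747%), so these counts of 0 say little about the lists. Over all settings the counts called higher ran from 0 to 3 for the chromatoid body and annulus, 0 to 6 for the other kinases and 0 to 5 for histone exchange. With limma on log2(TPM + 1) the other kinases had 0 calls and a median of 0.06. With the trend over transcript length removed their median was 0.08, with 3 called higher. The summed level of that list was 1992 to 2011 TPM in libraries labelled DKO and 2016 to 2027 TPM in those labelled WT, so the sum was not higher where labelled DKO.

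Markers of other cells were read beside these values. Of 12 round spermatid markers, 0 were called, and their summed level was 2294 to 2472 TPM in libraries labelled DKO and 2284 to 2539 TPM in those labelled WT. Of 12 elongating spermatid markers, Akap4 was called higher (0.35) and Gapdhs lower (-0.43), with sums of 117920 to 127810 against 109492 to 120320 TPM (median log2 fold change 0.02). Most of these sums came from Prm1, Prm2, Tnp1 and Tnp2, whose transcripts have 400 to 612 bases. Mean TPM was higher in libraries labelled DKO for Prm1, Tnp1 and Tnp2 and nearly equal for Prm2. The log2 fold changes in counts were -0.22, -0.16, 0.05 and -0.11 for these genes, none called. The part of fragment length in this was not tested. Of 12 spermatocyte markers, 2 were called higher (Sycp3 at 0.67 and Hormad1 at 0.54; sums 1160 to 1337 against 1053 to 1131 TPM). Lower calls were seen in 4 of 9 Leydig cell markers (Star, Hsd3b6, Insl3 and Fabp3; sums 1077 to 1796 against 1786 to 3780 TPM) and 2 of 10 Sertoli cell markers (Defb19 and Rhox5; sums 1666 to 2106 against 2104 to 2651 TPM). Among 9 tested spermatogonia, 7 peritubular and vascular, 6 macrophage, 2 tested red blood cell and 1 tested epididymal markers, 0 were called. Their median log2 fold changes were 0.004, -0.23, -0.40, 0.68 and 0.04, in that order. The red blood cell value is the median of Alas2 (0.02) and Hba-a1 (1.34). Hba-a1 was at 3.93 CPM in DKO replicate 2 and at most 0.797 CPM in any other library, so that value rests on 1 library. The Sertoli cell markers had a median of -0.18 and the Leydig cell markers one of -0.50. Calls in the marker lists stand beside 5.75% of all tested genes called higher and 5.1% called lower. A short list with 0 calls therefore says little about its cells. Lcn5 and Lcn8, markers of the epididymis, were at 0 in each library. Defb21, another epididymal gene, was at 15.2, 8.95 and 10.6 TPM in libraries labelled DKO and 10.5, 8.89 and 7.88 TPM in those labelled WT. The part of these shifts in the values of the kinases was not tested.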

How the data were processed

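RNA was measured in 6 testis libraries, grouped by the genotype label. Replicate numbers only name libraries. The p-values set differences between the groups against the variation between these libraries. STAR 2.7.0f, RSEM 1.2.31, DESeq2 1.12.3 and build mm10 are named, per the submitters' processing notes, without roles. Each deposited table gives, per the file headers, an expected count of each gene. TPM in the deposited tables also takes effective length into account. Expected counts were rounded, filtered by filterByExpr, scaled by TMM and tested with edgeR 4.0.16 (quasi-likelihood test, genotype as the only term, Benjamini-Hochberg over 17110 genes, threshold 0.05). CPM are TMM-scaled. The SE is the log2 fold change divided by the square root of F, and 95% intervals use its t distribution. Mean fragment length was recovered from genes above 3000 bases, as the median gap between length and effective length, plus 1. Shares and ratios were compared by exact two-sided permutation tests. Alternatives used DESeq2 1.42.0, limma 3.58.1 on log2(TPM + 1) and log2(TPM + 0.1), other scaling, filters, length corrections, thinning, a fragment length covariate and each library left out. Positions are from RefSeq GRCm38.p6 and GENCODE M21, the assembly known as mm10, and promoters from RefSeq, matched by symbol for 6 of 6 genes. Genes were named by rule: the 6 genes, both targeted genes, up to 4 called genes per list, Tsacc, Odf2, Ppp1cc and Tssk5, neighbours and the genes of most similar pattern, of which 1 is not reported here. The genes and lists were chosen with earlier results of these data known; ratios other than Tssk1 to Tssk2 and the joint count with Ndufa13 were added after the data were seen.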

Additional observations from a re-analysis of the deposited data

How the results depend on the processing

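No paired analysis was possible because the labels give each library a number of its own that no library of the other group carries, and the replicate numbers used here only follow the order of deposit. The count of called genes among the 6 was 0 in all settings but 2: it was 1 with DESeq2 (Tssk6, log2 fold change -0.29) and, among the fits that each left out a library, it ranged from 0 to 1, with Tssk6 called without DKO replicate 2. In those fits Tssk6 ranged from -0.43 to -0.22, Tssk3 from 0.07 to 0.21, Tssk1 from 0.08 to 0.21, Tsks from 0.05 to 0.15, Tssk2 from -0.10 to -0.01 and Tssk4 from -0.15 to -0.05. Over all genes the count called was 1856, against 2921 with DESeq2, 735 and 947 with limma at pseudocounts of 1 and 0.1, and 7 to 3029 without 1 library. The fits without WT replicate 3, DKO replicate 1 and WT replicate 2 called 0.0402%, 0.0643% and 0.0747% of genes, so the lack of calls there says little about the family. With mean fragment length as a covariate Tssk1 turned to -0.10 (SE 0.139; edgeR adjusted p = 0.999), a fit that called 0.00584% of genes; the cause was not tested. Differences in shares kept their direction without any 1 library, from -3.35 to -2.13 percentage points for Tssk6 and from 1.88 to 2.84 for Tssk3. Of the marker lists with a call, the spermatocyte markers had 0 to 4 called higher over the alternatives (2 in the main result), the Leydig cell markers 0 to 7 lower (4) and the Sertoli cell markers 0 to 4 lower (2). No median could be given for the epididymal markers above a mean count of 50 or with DESeq2, nor for the red blood cell markers with DESeq2. Counting error at the lowest count of each of the 6 genes was 0.690% to 1.57%, and the coefficient of variation of CPM within a group was 2.05% to 15.6%. The smallest variation, 2.05%, was that of Tssk3 in libraries labelled DKO, which had 8090 to 13563 counts. The counting error of Tssk3, 1.40%, was taken at its lowest count, 5098 in WT replicate 1, and so belongs to the other group.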

Other observations

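The genes whose levels followed those of the family most closely were found among 14306 tested genes with a mean of at least 1 TPM, by the root-mean-square difference of centred log2 CPM over the 6 libraries. Nearest to Tssk1 were Ccdc86 (0.0136) and Tulp2 (0.0146), and Tulp2 was abundant, at 838 TPM on average. Nearest to Tssk2 were Dnah17 (0.0200) and Mtor (0.0220). Nearest to Tssk3 were Tex24 (0.0155) and Prkcq (0.0176), and nearest to Tssk4 were Slco2a1 (0.0167) and 1700106J16Rik (0.0167). Among the genes near Tsks was Vars (0.0208). Tssk6 had no gene as near: Scube3 (0.0363) and Tmem53 (0.0407) came first, with log2 fold changes of -0.23 and -0.27 (adjusted p of 0.286 and 0.0798, edgeR). None of the genes named here was called. Slco2a1 and Scube3 were at low levels, 1.71 and 2.87 TPM on average. How near a match among 14306 genes comes by chance was not tested.

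Of the 12 other tested genes that overlap or flank one of the 6, 1 was called, beside 10.8% of all tested genes. It was Cilp2, before Tssk6 on chromosome 8, at -0.93 on the log2 scale (SE 0.267; adjusted p = 0.0478, edgeR) and at most 0.52 TPM in any library. Dgcr2, whose span holds Tssk1 on the opposite strand, had -0.12 (SE 0.0818; adjusted p = 0.350, edgeR). Bsdc1, 515 bases from Tssk3, had 0.23 (SE 0.0722; adjusted p = 0.0619, edgeR).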
